A study of Mus musculus with 6 samples.

Results

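The genes described are 36 components of Toll-like receptor signalling: 10 receptors, 4 coreceptor and accessory genes, 2 genes for receptor folding and trafficking, the adaptors, the proximal kinases, and the NOD receptors with their kinase. They were taken by gene symbol from a fixed list, which was chosen with earlier results of these data known. All 36 were among the 23034 genes of the table. Of the 36, all passed the filter on low counts, Tlr5 through the control libraries alone. RNA was sequenced from mouse bone marrow-derived macrophages, with 3 libraries from cultures given SA@BATMAN5 for 24 hours and 3 from control cultures given PBS. Cells of both groups were wild type, were grown from femur marrow with M-CSF at 10 ng/ml, and were turned into M2 macrophages by IL-4 (20 ng/ml, 24 hours) and reseeded before treatment. The series title speaks of tuftsin clusters aimed at Fc gamma receptors, and the labels give neither the dose nor whether IL-4 stayed in the medium. They also do not say whether the replicates were separate cultures or animals, so the p-values cover the spread among these libraries, and that spread may be technical.

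Toll-like receptors recognise conserved microbial molecules. Those at the cell surface bind lipopeptides, lipopolysaccharide and flagellin, and those in endosomes bind RNA and DNA. After ligand binding the receptors recruit MyD88, which assembles the IRAK kinases and leads through TAK1 and its TAB adaptors to the IKK complex and NF-kappaB. TLR3 and internalised TLR4 use TRIF instead, which engages TBK1 and IKK-epsilon and leads to interferon genes. NOD1 and NOD2 sense fragments of peptidoglycan in the cytosol and signal through the kinase RIPK2. Macrophages carry most of these molecules, together with brakes such as IRAK-M and Tollip.

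After SA@BATMAN5, 23 of the 36 genes were higher and 9 lower than in control libraries, and Cd180, Irak4, Tab3 and Chuk did not pass the test (edgeR's quasi-likelihood test, Benjamini-Hochberg adjusted p under 0.05). The background is wide, since 58.2% of the 13474 tested genes were called (29.5% of all tested higher and 28.7% lower). With upper-quartile scaling in place of TMM the split over all genes was 3239 higher and 4791 lower, against 3980 and 3866 with TMM. The median log2 fold change was 0.38 over the 36 genes and -0.0041 over all tested genes. Groups did not overlap for 31 of the 36 genes, against 64.1% of tested genes. Most changes were small, with 22 of the 32 called genes under 2-fold. A rise of at least 2-fold was found for Tlr1, Tlr2, Tlr7, Ticam2, Irak3, Ikbke, Nod1 and Nod2, where 9.17% of tested genes rose that much. A fall of at least 2-fold was found for Tlr5 and Tlr9, where 7.35% of tested genes fell that much.

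**Figure D1:**
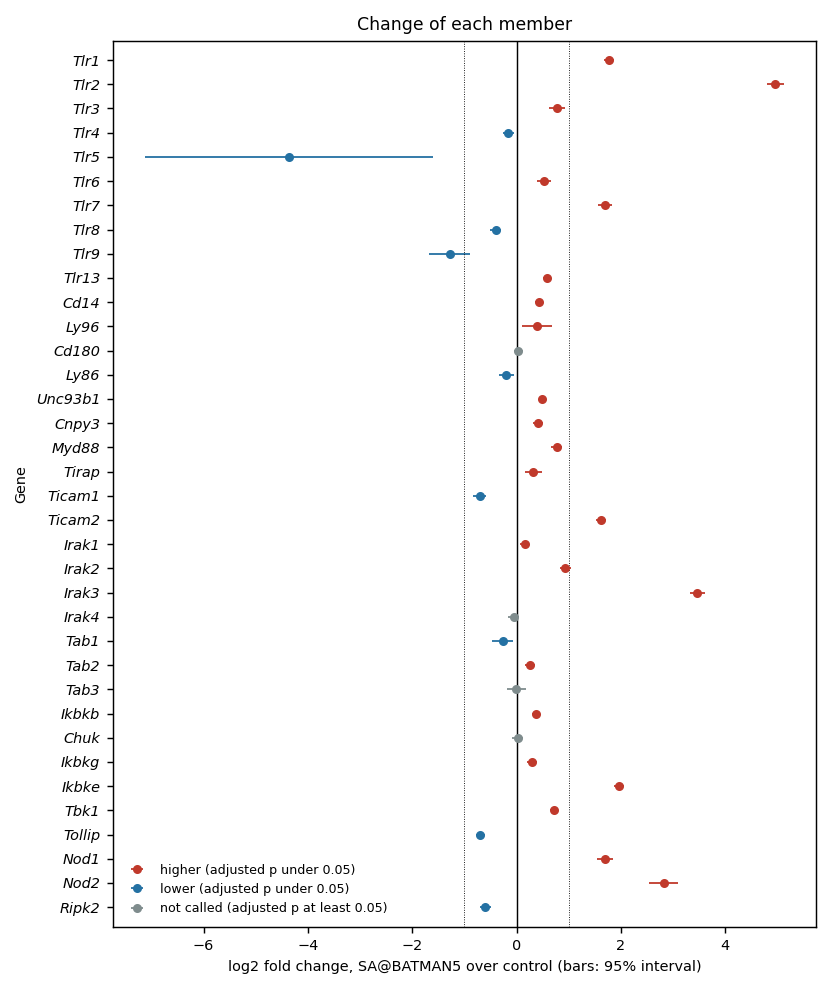
Log2 fold change of each of the 36 genes, SA@BATMAN5 over control (x axis, 3 libraries per group), with 95% intervals as bars, a line at no change and dotted lines at 2-fold either way. Tlr2, Irak3 and Nod2 lie farthest to the right, at 4.96, 3.47 and 2.82, and Tlr5 has the widest interval.

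Libraries held 29739263 to 37212125 counts with SA@BATMAN5 and 38740103 to 47018154 in controls, so depth did not overlap between groups (p = 0.1 in a two-sided exact permutation test, where 3 libraries against 3 cannot go lower). Levels are given as CPM, the count scaled to a common TMM-adjusted library total, and 3 counts equalled 0.0619 to 0.103 CPM depending on the library. All 8 macrophage markers were present, with a summed level of 21856 to 22107 CPM in SA@BATMAN5 and 15865 to 16056 CPM in control libraries. Summed markers of fibroblasts (all 6 present, 5 called higher) stood at 1077 to 1240 CPM in SA@BATMAN5 and 752 to 935 CPM in control libraries. The 8 neutrophil markers summed to 59.4 to 70.1 CPM with SA@BATMAN5 and 8.71 to 8.99 CPM in controls, most of it S100a8 (61.7 CPM in SA@BATMAN5 and 5.63 CPM in control libraries), while Ly6g, Mpo, Ctsg and Retnlg had no count. Cxcr2, another neutrophil marker, fell (0.179 CPM in SA@BATMAN5 and 1.40 CPM in control libraries, adjusted p 0.00116, edgeR). Summed B cell markers reached at most 4.78 CPM in SA@BATMAN5 and 2.40 CPM in control libraries. That maximum came from SA@BATMAN5 replicate 3, where Ms4a1 had 87 counts, against 0 in the other SA@BATMAN5 libraries. Cd79a was called higher (0.394 CPM in SA@BATMAN5 and 0.145 CPM in control libraries) and Cd79b was not called. T and NK cell markers reached at most 3.97 CPM in SA@BATMAN5 and 1.00 CPM in control libraries, with Cd3e, Cd3d and Cd3g at 0. Nearly all of it was Klrb1c (3.27 CPM in SA@BATMAN5 and 0.812 CPM in control libraries), which was called higher. Dendritic cell markers summed to 6.63 to 7.57 CPM with SA@BATMAN5 and 4.74 to 5.12 CPM in controls, with Flt3 and Siglech at 0. The difference lay in Ccr7 (3.27 CPM in SA@BATMAN5 and 0.0894 CPM in control libraries), while Zbtb46 (2.03 CPM in SA@BATMAN5 and 2.44 CPM in control libraries), Xcr1 and Clec9a did not pass the test and had lower means with SA@BATMAN5. Endothelial markers were at 2.40 to 2.89 CPM with SA@BATMAN5 and 6.38 to 7.19 CPM in controls. That difference lay in Pecam1 (1.02 CPM in SA@BATMAN5 and 5.06 CPM in control libraries), which was called lower. Cdh5 (0.502 CPM in SA@BATMAN5 and 0.471 CPM in control libraries) and Kdr (1.08 and 1.12 CPM) did not pass the test, and Tek was not tested. Mast cell markers were at no more than 0.0828 CPM with SA@BATMAN5 and 0.124 CPM in controls. The part of these cells in the results was not tested, and in such bulk samples fewer cells of a type and less RNA per cell cannot be told apart.

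The stretches upstream of the transcription starts of Tlr2, Tlr3, Irak1, Tlr6 and Myd88 are shown because these were the members that held a match to the kappaB consensus or to the interferon-stimulated response element. RefSeq windows (GRCm38.p6) were in hand for 27 of the 36 genes, and the 250 bases before each annotated start were searched on both strands. Capitals mark kappaB consensus matches in Tlr2, Tlr3 and Irak1. In Tlr6 and Myd88 they mark matches to the response element, spelled here as GAAA, any 2 bases and GAAA. In Tlr2 and in Tlr6 the capitals cover 2 overlapping matches, which in Tlr6 are on the other strand. For Tlr6 and Irak1, which have several starts, the first is shown. Each stretch is written 5′ to 3′ on its gene's strand and ends just before the start.
Tlr2 (chr3:83841609-83841858, minus strand): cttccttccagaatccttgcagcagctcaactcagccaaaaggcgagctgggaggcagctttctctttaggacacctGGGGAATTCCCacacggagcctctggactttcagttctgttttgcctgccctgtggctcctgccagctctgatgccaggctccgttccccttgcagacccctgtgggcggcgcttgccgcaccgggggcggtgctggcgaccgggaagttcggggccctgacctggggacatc
Tlr3 (chr8:45410381-45410630, minus strand): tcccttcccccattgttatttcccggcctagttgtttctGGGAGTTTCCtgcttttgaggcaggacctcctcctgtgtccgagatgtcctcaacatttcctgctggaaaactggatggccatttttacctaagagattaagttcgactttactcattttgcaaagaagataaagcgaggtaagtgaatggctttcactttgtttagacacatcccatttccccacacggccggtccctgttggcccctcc
Irak1 (chrX:74023922-74024171, minus strand): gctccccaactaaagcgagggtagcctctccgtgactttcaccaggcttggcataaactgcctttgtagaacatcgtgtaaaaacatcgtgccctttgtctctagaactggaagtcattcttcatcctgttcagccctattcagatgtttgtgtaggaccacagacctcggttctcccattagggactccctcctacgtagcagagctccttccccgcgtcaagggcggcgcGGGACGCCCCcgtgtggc
Tlr6 (chr5:64959167-64959416, minus strand): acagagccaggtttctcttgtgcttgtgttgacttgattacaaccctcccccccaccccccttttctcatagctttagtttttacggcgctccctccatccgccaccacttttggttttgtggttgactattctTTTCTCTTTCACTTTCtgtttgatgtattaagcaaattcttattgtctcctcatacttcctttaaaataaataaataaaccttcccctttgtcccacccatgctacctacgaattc
Myd88 (chr9:119340019-119340268, minus strand): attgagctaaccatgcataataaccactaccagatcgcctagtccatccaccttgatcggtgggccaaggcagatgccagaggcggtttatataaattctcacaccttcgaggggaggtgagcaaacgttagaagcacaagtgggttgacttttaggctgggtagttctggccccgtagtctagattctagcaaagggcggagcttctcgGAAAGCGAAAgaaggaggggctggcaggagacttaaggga
A kappaB consensus match stood in the windows of 3 of the 27 genes (Tlr2, Tlr3 and Irak1), against 8.23% of 27025 genes with a window. The response element stood in those of 2 of the 27 (Tlr6 and Myd88), against 3.46% of all genes. A narrower kappaB spelling, GGGA and TTCC with any 2 bases between, was held by Tlr3 alone of the 27 and by 1.36% of all genes. The core bound by the macrophage factor PU.1, GAGGAA, stood in those of 9 of the 27, against 25.9% of all genes. The genes with the highest fold rises after Tlr2, namely Irak3, Nod2 and Ikbke, held neither a kappaB consensus nor a response element match in the 250 bases searched. Any link between these elements and the rises was not tested. These are matches of letters and not shown sites, and no factor's binding was measured.

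Among the surface receptors the lipopeptide receptor genes rose. Tlr2, the shared partner in sensing bacterial lipopeptides, had 207, 236 and 229 CPM in SA@BATMAN5 libraries, against 6.15, 7.44 and 7.97 CPM in control libraries. The lowest treated library was thus far above the highest control. The log2 fold change was 4.96 ± 0.079 (SE), or 31.2-fold (adjusted p 1.23e-15, edgeR). Tlr1, which pairs with TLR2 for triacylated lipopeptides, had 113, 113 and 118 CPM in SA@BATMAN5 libraries, against 34.9, 33.6 and 32.4 CPM in control libraries. Tlr6, the partner for diacylated lipopeptides, had 37.6, 33.1 and 36.1 CPM in SA@BATMAN5 libraries, against 25.9, 24.8 and 23.5 CPM in control libraries. Both genes were higher in every treated library than in any control, with log2 fold changes of 1.77 ± 0.043 and 0.53 ± 0.064 (adjusted p 1.56e-13 and 6.77e-06). Tlr1 and Tlr6 are close paralogs, and how reads common to both were assigned is not known.

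The other surface receptor genes were lower. Tlr4, which signals for lipopolysaccharide, had 56.8, 59.0 and 58.1 CPM in SA@BATMAN5 libraries, against 67.6, 60.9 and 65.7 CPM in control libraries. The groups stayed apart by a narrow margin, and the log2 fold change was -0.16 ± 0.047 (adjusted p 0.0101, edgeR), so the fall was far under 2-fold. Tlr5, the flagellin receptor, was near the detection floor, with 0, 2 and 0 counts in SA@BATMAN5 libraries, against 30, 15 and 19 counts in control libraries. The ratio of its scaled counts was 0.0417, with a 95% counting interval of 0.00495 to 0.157. The edgeR fit, a separate calculation, gave a log2 fold change of -4.36 ± 1.28 (adjusted p 0.000542). Since Tlr5 passed the filter through the control libraries alone, a low treated level was in part built in, and its call is given as a description. The counting interval pools the libraries of a group and so leaves out the spread between them. It also treats reads as independent molecules, which sequencing reads are not.

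Endosomal receptor genes went both ways. Tlr7, a sensor of single-stranded RNA, had 169, 183 and 187 CPM in SA@BATMAN5 libraries, against 60.6, 50.5 and 55.4 CPM in control libraries. Its neighbour on the X chromosome, Tlr8, known in humans as a sensor of single-stranded RNA, had 155, 157 and 159.9 CPM in SA@BATMAN5 libraries, against 228, 194 and 202 CPM in control libraries. The groups did not overlap for either gene, and the log2 fold changes were 1.69 ± 0.058 for Tlr7 and -0.40 ± 0.050 for Tlr8 (adjusted p 7.34e-12 and 9.08e-06, edgeR). Tlr9, which recognises CpG DNA, was scarce, with 2.08, 1.89 and 1.60 CPM in SA@BATMAN5 libraries, against 3.95, 4.76 and 4.87 CPM in control libraries. Every treated library was below every control, with a log2 fold change of -1.28 ± 0.18 (adjusted p 2.80e-05). Tlr13, which in mice recognises bacterial ribosomal RNA, had 433, 441 and 442 CPM in SA@BATMAN5 libraries, against 303, 280.0 and 294 CPM in control libraries. Tlr3, the sensor of double-stranded RNA, had 23.3, 22.8 and 25.4 CPM in SA@BATMAN5 libraries, against 14.6, 13.9 and 13.5 CPM in control libraries. Both Tlr13 and Tlr3 were higher in all treated libraries, by 0.58 ± 0.034 and 0.77 ± 0.072 on the log2 scale (adjusted p 2.63e-09 and 4.73e-07). For Tlr3 the deposited FPKM gave a ratio of means of 1.45 where CPM gave 1.70, the widest such gap among the receptors other than Tlr5.

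**Figure D2:**
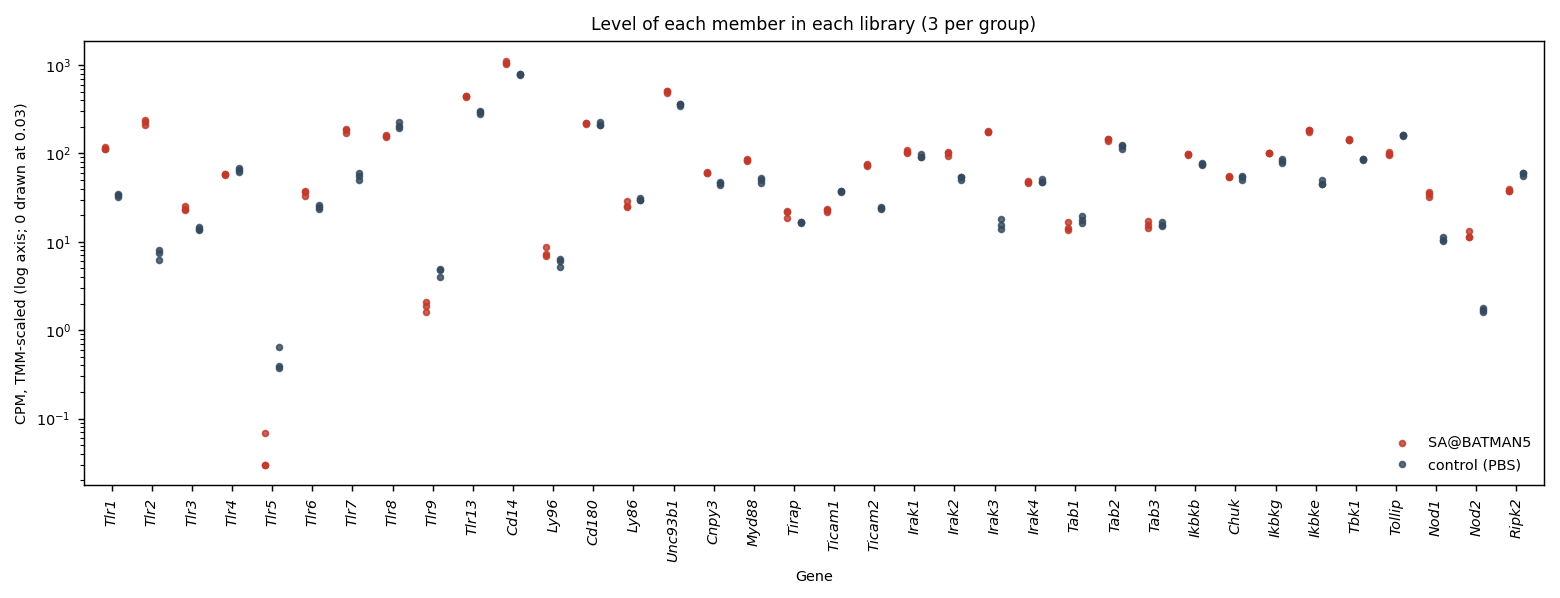
Level of each of the 36 genes in each library, in TMM-scaled CPM on a log axis, with SA@BATMAN5 points left of control points and 0 drawn at 0.03. The groups lie apart for 31 of the 36 genes and overlap for Cd180, Irak4, Tab1, Tab3 and Chuk.

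Levels of different receptors can be set side by side only per transcript length, as FPKM. With SA@BATMAN5 the order of mean FPKM was Tlr13, Tlr2, Tlr7, Tlr8, Tlr1, Tlr4, Tlr6, Tlr3, Tlr9 and Tlr5, and Tlr7 and Tlr8 overlapped. In controls it was Tlr13, Tlr8, Tlr4, Tlr7, Tlr1, Tlr6, Tlr3, Tlr2, Tlr9 and Tlr5, and Tlr4 and Tlr7 overlapped. Other neighbours in both orders did not overlap between libraries. Tlr2 thus ranked 2 of 10 with SA@BATMAN5 and 8 of 10 in controls, at 60.1 ± 4.64 FPKM in SA@BATMAN5 and 2.03 ± 0.258 FPKM in control libraries (SD, n = 3 each). Tlr13 led both orders, at 87.4 ± 1.83 FPKM in SA@BATMAN5 and 61.3 ± 2.53 FPKM in control libraries.

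The mix of receptor transcripts shifted with these changes. Tlr2 made up 21.2% ± 0.968 in SA@BATMAN5 and 1.25% ± 0.215 in control libraries of the summed FPKM of the 10 receptor genes (SD, n = 3 each). Tlr8 made up 13.3% ± 0.303 in SA@BATMAN5 and 32.1% ± 1.06 in control libraries, although its own level fell by only 0.40 on the log2 scale. The sum itself was 284 ± 9.16 FPKM in SA@BATMAN5 and 164 ± 9.56 FPKM in control libraries. The 5 surface receptor genes together had 108, 118 and 115 FPKM in SA@BATMAN5 libraries, against 33.8, 31.6 and 31.9 FPKM in control libraries. The 5 endosomal genes together had 165, 173 and 172 FPKM in SA@BATMAN5 libraries, against 141, 124 and 129 FPKM in control libraries. Endosomal receptors therefore held 59.9% ± 0.441 of the receptor FPKM with SA@BATMAN5 and 80.2% ± 0.459 in controls. These shares are a description, since they follow from the same values as the single genes.

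**Figure D3:**
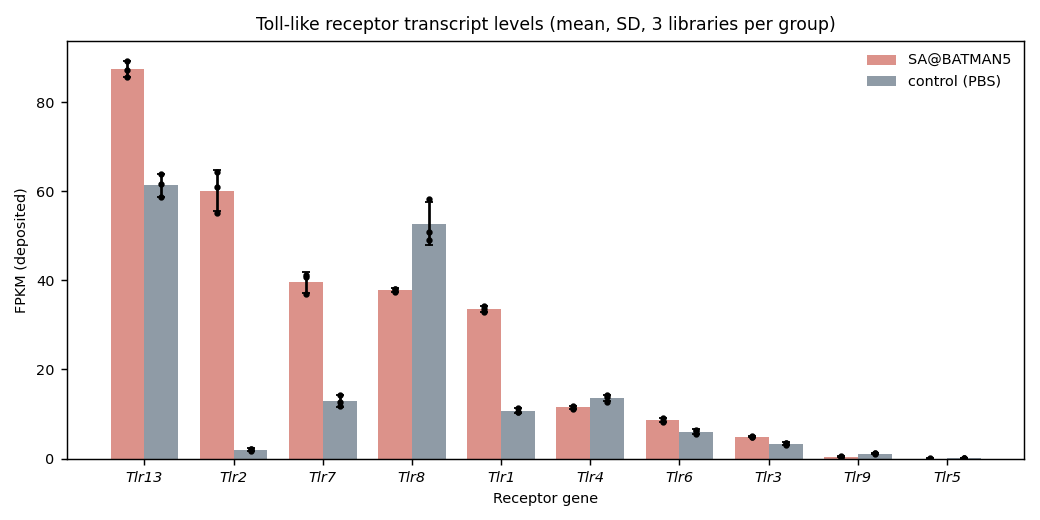
Deposited FPKM of the 10 receptor genes, ordered by their mean with SA@BATMAN5, as bars of the mean with SD and points for the 3 libraries of each group (SA@BATMAN5 left, control right). Tlr2 stands at 60.1 against 2.03 FPKM and Tlr8 at 37.8 against 52.7 FPKM.

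Coreceptor genes differed by less than 2-fold. Cd14, which hands lipopolysaccharide to TLR4 and MD-2, was the most abundant of the 36 per length in both groups and had 1110.3, 1043 and 1018 CPM in SA@BATMAN5 libraries, against 796, 782 and 770.0 CPM in control libraries. All treated libraries were above all controls, with a log2 fold change of 0.43 ± 0.034 (adjusted p 6.76e-08, edgeR). Ly96, which encodes MD-2, the subunit that binds the lipid, was at 7.63 ± 0.898 CPM in SA@BATMAN5 and 5.83 ± 0.645 CPM in control libraries (SD, n = 3 each; log2 fold change 0.39 ± 0.13, adjusted p 0.0190). That call was lost without SA@BATMAN5 replicate 3 (adjusted p 0.106) and without control replicate 3 (0.0868), and with upper-quartile scaling (0.0533). Cd180, a receptor-like protein related to TLR4, had 221, 215 and 220.1 CPM in SA@BATMAN5 libraries, against 227, 207 and 208 CPM in control libraries. Its groups overlapped, and the 95% interval of its log2 fold change was -0.050 to 0.12, with a sign that turned under 3 other scalings or units. Ly86, which encodes MD-1, the partner of CD180, was at 26.3 ± 2.12 CPM in SA@BATMAN5 and 30.3 ± 1.03 CPM in control libraries (log2 fold change -0.20 ± 0.066, adjusted p 0.0182). The Ly86 call was lost without SA@BATMAN5 replicate 2 (adjusted p 0.0583), SA@BATMAN5 replicate 3 (0.0905) or control replicate 1 (0.0604).

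Both genes of receptor folding and traffic rose. Unc93b1, which escorts nucleic acid sensing receptors to endosomes, had 510.0, 486 and 502 CPM in SA@BATMAN5 libraries, against 359.6, 359.9 and 344 CPM in control libraries. Cnpy3, a chaperone needed for several Toll-like receptors to leave the endoplasmic reticulum, was at 60.9 ± 0.672 CPM in SA@BATMAN5 and 45.8 ± 1.84 CPM in control libraries. Neither gene's groups overlapped, and the log2 fold changes were 0.49 ± 0.032 and 0.41 ± 0.045 (adjusted p 8.81e-09 and 2.55e-06, edgeR).

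The adaptor genes were split. Myd88, the adaptor of all these receptors but TLR3, had 84.3, 82.7 and 85.6 CPM in SA@BATMAN5 libraries, against 46.5, 52.1 and 49.7 CPM in control libraries. Ticam2, which encodes TRAM, the bridge from TLR4 to TRIF, had 71.3, 76.0 and 74.6 CPM in SA@BATMAN5 libraries, against 23.6, 24.8 and 24.0 CPM in control libraries. Ticam1, which encodes TRIF itself, had 23.2, 22.8 and 22.0 CPM in SA@BATMAN5 libraries, against 37.3, 36.8 and 37.2 CPM in control libraries. Treated libraries thus lay above controls for Myd88 and Ticam2 and below them for Ticam1, with log2 fold changes of 0.77 ± 0.047, 1.62 ± 0.048 and -0.71 ± 0.054 (adjusted p 3.95e-09, 1.24e-12 and 4.26e-08, edgeR). Tirap, which brings MyD88 to the membrane, rose modestly, at 20.7 ± 1.96 CPM in SA@BATMAN5 and 16.6 ± 0.267 CPM in control libraries (log2 fold change 0.32 ± 0.078, adjusted p 0.00288).

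Some of these levels may include reads of neighbours. In the GENCODE annotation of GRCm38, which is not the authors' build, exons of 11 members overlapped another annotated gene, in 1 case a protein-coding gene on the same strand and in 6 cases a protein-coding gene on the opposite strand. Ticam2 shares exonic sequence on its strand with Tmed7, a trafficking gene, which was at 50.8 ± 2.62 CPM in SA@BATMAN5 and 51.0 ± 4.39 CPM in control libraries (log2 fold change -0.0093 ± 0.062) and did not pass the test. Acaa1a, opposite Myd88, rose by 1.00 ± 0.049, Tmbim4, opposite Irak3, by 1.02 ± 0.044, and G6pdx, opposite Ikbkg, by 1.22 ± 0.030 on the log2 scale. Neither the counting tool nor a strand setting is known here, so the share of such reads was not tested.

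In the IRAK family the largest rise was in its inhibitory member. Irak3, which encodes IRAK-M, a brake on signalling in macrophages, had 173, 174 and 181 CPM in SA@BATMAN5 libraries, against 15.4, 14.1 and 18.1 CPM in control libraries. The treated libraries were all near one level and far above the controls, with a log2 fold change of 3.47 ± 0.067, or 11.0-fold (adjusted p 1.30e-14, edgeR). Irak2, a kinase of the later signalling complex, had 105, 94.3 and 102 CPM in SA@BATMAN5 libraries, against 49.5, 54.1 and 54.0 CPM in control libraries (log2 fold change 0.94 ± 0.050, adjusted p 9.60e-10). Irak1 was at 105 ± 3.80 CPM in SA@BATMAN5 and 94.1 ± 4.05 CPM in control libraries (log2 fold change 0.15 ± 0.043, adjusted p 0.00712). Its call was lost with library totals only (adjusted p 0.138), upper-quartile scaling (0.168) and FPKM (0.296). Irak4, the first kinase recruited by MyD88, was at 47.3 ± 1.04 CPM in SA@BATMAN5 and 49.0 ± 2.44 CPM in control libraries and did not pass (adjusted p 0.384, 95% interval of the log2 fold change -0.16 to 0.054). It was called lower with library totals only (adjusted p 0.0360) and with upper-quartile scaling (0.0288).

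Genes of the TAB proteins and the IKK complex stayed within a narrow range. Tab1, Tab2 and Tab3 link TAK1 to ubiquitin chains or activate it, and their log2 fold changes were -0.26 ± 0.093, 0.26 ± 0.042 and -0.0049 ± 0.085 (adjusted p 0.0248, 0.000124 and 0.967, edgeR). Tab1 groups overlapped, and its call was lost without SA@BATMAN5 replicate 2 (adjusted p 0.0726), SA@BATMAN5 replicate 3 (0.102) or control replicate 2 (0.111), and after thinning to the shallowest library (0.0714). Ikbkb, the kinase subunit that phosphorylates the inhibitors of NF-kappaB, had 98.1, 97.0 and 99.0 CPM in SA@BATMAN5 libraries, against 77.7, 75.2 and 74.2 CPM in control libraries (log2 fold change 0.37 ± 0.037, adjusted p 8.76e-07). Chuk, the partner kinase IKK-alpha, had 54.0, 55.2 and 53.5 CPM in SA@BATMAN5 libraries, against 54.7, 50.6 and 55.1 CPM in control libraries, and these groups overlapped (95% interval of the log2 fold change -0.082 to 0.12, adjusted p 0.743). Ikbkg, the regulatory subunit NEMO, was at 101 ± 1.03 CPM in SA@BATMAN5 and 82.0 ± 4.73 CPM in control libraries (log2 fold change 0.29 ± 0.044, adjusted p 5.38e-05). On the FPKM scale its adjusted p was 0.0524, and its FPKM and CPM moved apart between libraries more than those of the other members with a value, Tlr5 having none (coefficient of variation of their quotient 12.0%).

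The IKK-related kinases of the interferon branch both rose. Ikbke, which encodes IKK-epsilon, had 182, 182 and 176 CPM in SA@BATMAN5 libraries, against 44.8, 49.6 and 44.7 CPM in control libraries. Tbk1 had 144, 140.3 and 139.9 CPM in SA@BATMAN5 libraries, against 87.2, 85.7 and 84.3 CPM in control libraries. All treated libraries were above the controls for both genes, with log2 fold changes of 1.96 ± 0.044 and 0.72 ± 0.035 (adjusted p 6.67e-14 and 3.30e-10, edgeR). Tollip, an inhibitor of receptor and IRAK signalling, went the other way, with 103, 98.6 and 94.9 CPM in SA@BATMAN5 libraries, against 161, 156 and 162 CPM in control libraries (log2 fold change -0.69 ± 0.039, adjusted p 1.43e-09). Among the listed inhibitors, then, Irak3 rose and Tollip fell.

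The cytosolic peptidoglycan receptors rose while their kinase fell. Nod2, the receptor for muramyl dipeptide, had 11.3, 11.4 and 13.2 CPM in SA@BATMAN5 libraries, against 1.69, 1.60 and 1.78 CPM in control libraries. Nod1, which recognises fragments with diaminopimelic acid, had 34.8, 31.9 and 36.6 CPM in SA@BATMAN5 libraries, against 11.2, 10.5 and 10.2 CPM in control libraries. Ripk2, the kinase both use, had 37.6, 39.9 and 37.8 CPM in SA@BATMAN5 libraries, against 59.7, 55.5 and 59.9 CPM in control libraries. The groups lay apart for each of the 3 genes, with log2 fold changes of 2.82 ± 0.13, 1.70 ± 0.073 and -0.60 ± 0.050 (adjusted p 1.60e-10, 8.53e-11 and 1.17e-07, edgeR).

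Because the ratio of a pair of genes within one library does not depend on the scaling between libraries, 14 pairs of partners were compared by their FPKM ratio. Most of the pairs are made of genes whose own groups did not overlap, so the ratios restate those differences as proportions and are given as a description. Each pair had p = 0.1 in a two-sided exact permutation test (0.1 after adjustment over the 14), a design that cannot go lower. Tlr2 to Tlr1 was 1.67, 1.92 and 1.77 in SA@BATMAN5 libraries, against 0.154, 0.200 and 0.215 in control libraries. Tlr1 transcripts per length thus exceeded Tlr2 in controls, and Tlr2 exceeded Tlr1 with SA@BATMAN5. Irak3 to Irak1 was 2.00, 1.85 and 2.01 in SA@BATMAN5 libraries, against 0.186, 0.175 and 0.215 in control libraries, and Ikbke to Tbk1 was 1.17, 1.20 and 1.16 in SA@BATMAN5 libraries, against 0.475, 0.536 and 0.491 in control libraries. In both pairs the first gene was the lesser in controls and the greater with SA@BATMAN5. Ticam1 to Myd88 was 0.181, 0.180 and 0.168 in SA@BATMAN5 libraries, against 0.525, 0.462 and 0.491 in control libraries, so that Ticam1 was the lesser in all libraries and more so with SA@BATMAN5.

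The other pairs, apart from Unc93b1 to Tlr7, shifted toward the gene named first. Tlr2 to Tlr6 had geometric means of 6.95 in SA@BATMAN5 and 0.336 in control libraries, and Tlr7 to Tlr9 had 92.5 in SA@BATMAN5 and 11.7 in control libraries. Irak2 to Irak1 was at 1.11 in SA@BATMAN5 and 0.636 in control libraries, and Irak2 to Irak4 at 2.02 in SA@BATMAN5 and 1.01 in control libraries. Nod2 remained below Nod1, at 0.315 in SA@BATMAN5 and 0.144 in control libraries. For the lipopolysaccharide receptor, Cd14 to Tlr4 was at 45.2 in SA@BATMAN5 and 30.0 in control libraries and Ly96 to Tlr4 at 0.842 in SA@BATMAN5 and 0.577 in control libraries. Cd180 to Ly86 moved by 0.23 and Ikbkb to Chuk by 0.38 on the log2 scale. Unc93b1 to Tlr7 was at 4.53 in SA@BATMAN5 and 10.4 in control libraries, as the rise of Tlr7 was larger than that of its escort.

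**Figure D4:**
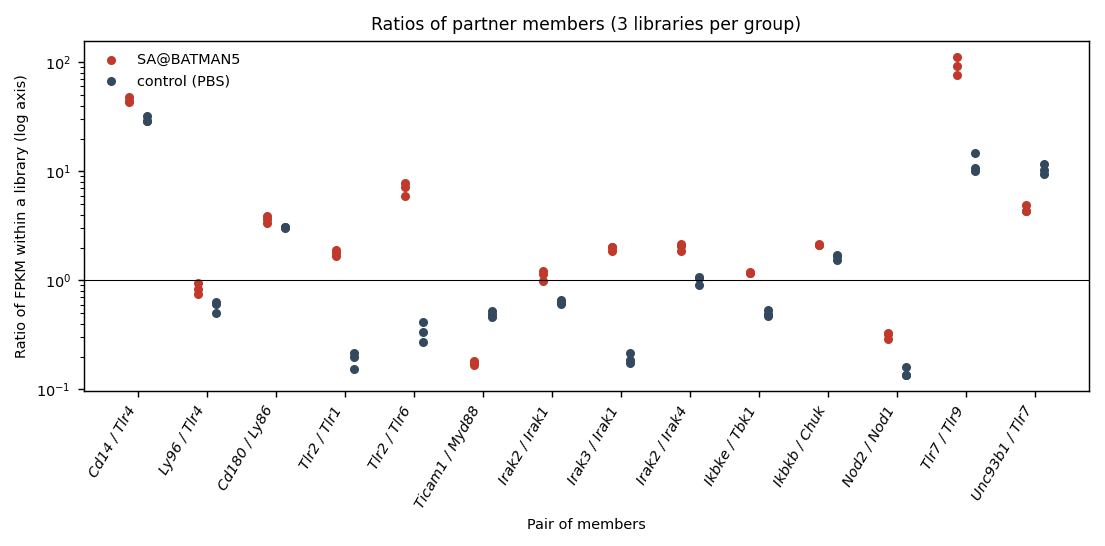
Ratio of FPKM within each library for 14 pairs of partner genes on a log axis, with SA@BATMAN5 points left of control points and a line at equality. Tlr2 to Tlr1, Tlr2 to Tlr6, Irak3 to Irak1 and Ikbke to Tbk1 lie on opposite sides of the line in the groups.

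Replicates were tight. The coefficient of variation of CPM over 3 libraries had a median of 3.26% over the 36 genes with SA@BATMAN5 and 4.99% in controls. Leaving out Tlr5, the highest was 13.1% for Tlr9 with SA@BATMAN5 and 13.0% for Tlr2 in controls.

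Other genes of the pathway were read from the same fit, as a list also chosen with earlier results of these data known. Of 38 further genes (ligases, deubiquitinases, transcription factors and accessory proteins), 35 were tested, 20 were higher and 4 lower (2 lower without SA@BATMAN5 replicate 3, control replicate 2 or control replicate 3), with a median log2 fold change of 0.22. Over all tested genes 29.5% were higher and 28.7% lower. Irf7, a transcription factor of endosomal receptor signalling, was at 871 ± 64.5 CPM in SA@BATMAN5 and 9.08 ± 0.650 CPM in control libraries. Nfkbia, the inhibitor that NF-kappaB induces, was at 226 ± 4.44 CPM in SA@BATMAN5 and 19.8 ± 0.729 CPM in control libraries, and Tnip1, a partner of the deubiquitinase A20, at 264 ± 3.49 CPM in SA@BATMAN5 and 68.3 ± 2.97 CPM in control libraries. A20 itself (Tnfaip3) rose by 1.69 ± 0.033 on the log2 scale. Those lower were Otulin, Slc15a3, Rbck1 and Sigirr, which encode a deubiquitinase of linear ubiquitin chains, an endosomal transporter, a subunit of the ligase that makes such chains, and an inhibitory receptor. Otulin and Slc15a3 had log2 fold changes of -0.73 ± 0.075 and -0.42 ± 0.031, and Rbck1 of -0.13 ± 0.048. Sigirr was scarce, with 18, 8 and 11 counts in SA@BATMAN5 libraries, against 37, 30 and 34 counts in control libraries. Its log2 fold change was -1.04 ± 0.39 (adjusted p 0.0330, edgeR). Hsp90b1, the chaperone of Toll-like receptors, Map3k7, the kinase TAK1, and Irf3, the factor downstream of TBK1, did not pass (log2 fold changes -0.048 ± 0.034, -0.059 ± 0.043 and 0.020 ± 0.062).

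Endosomal proteases and cytosolic sensors were read as separate lists. These too were chosen with earlier results of these data known, so their counts are a description and no list was tested. Of 10 lysosomal and endosomal protease genes, some of which cleave endosomal receptors, 7 were lower and 3 higher, with a median log2 fold change of -0.30, beside 28.7% lower and 29.5% higher over all tested genes. The 3 higher became 2 with library totals only, upper-quartile scaling or FPKM, and without SA@BATMAN5 replicate 1 or 3 or control replicate 1 or 3. Lgmn (asparagine endopeptidase) was at 261 ± 14.1 CPM in SA@BATMAN5 and 818 ± 13.3 CPM in control libraries, Ctsl at 2981 ± 263 CPM in SA@BATMAN5 and 7095 ± 413 CPM in control libraries and Ctsc at 406 ± 4.17 CPM in SA@BATMAN5 and 103 ± 0.619 CPM in control libraries. Of 12 cytosolic nucleic acid sensor genes and their regulators 11 were higher, against 29.5% of all tested genes, with a median of 1.93, and Sting1 did not pass (log2 fold change -0.12 ± 0.054, adjusted p 0.0694). Zbp1 was at 175 ± 8.35 CPM in SA@BATMAN5 and 6.04 ± 1.01 CPM in control libraries, Ddx60 at 79.7 ± 2.70 CPM in SA@BATMAN5 and 6.85 ± 0.228 CPM in control libraries and Rigi at 228 ± 5.42 CPM in SA@BATMAN5 and 26.5 ± 1.08 CPM in control libraries. Among genes that the pathway can induce, though not it alone, Tnf was at 321 ± 20.5 CPM in SA@BATMAN5 and 12.4 ± 0.365 CPM in control libraries. Cxcl10 was at 33.2 ± 0.728 CPM in SA@BATMAN5 and 0.287 ± 0.207 CPM in control libraries, and Il1b at 313 ± 11.6 CPM in SA@BATMAN5 and 0.970 ± 0.356 CPM in control libraries. All 3 were called higher, as were 29.5% of all tested genes, and what raised them was not tested. Activity of the receptors was not measured.

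**Figure D5:**
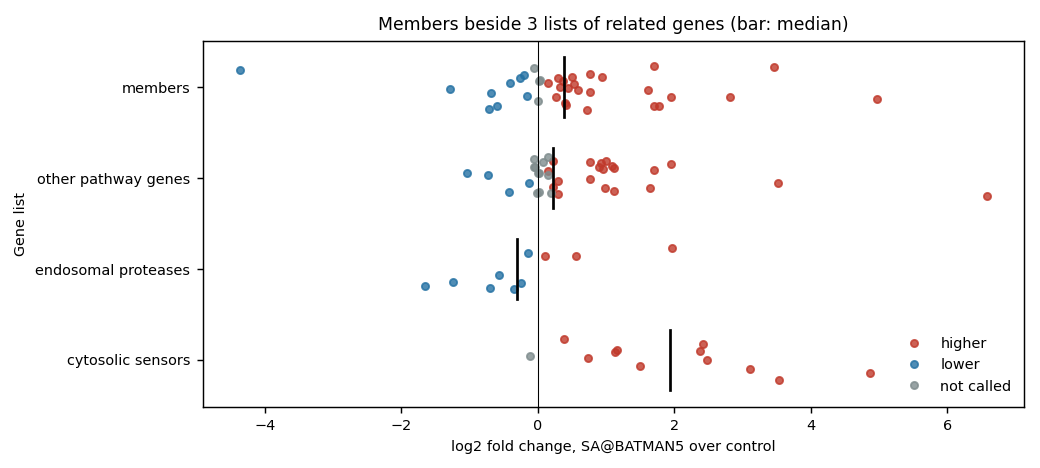
Log2 fold changes, SA@BATMAN5 over control, of the 36 genes and of the tested genes of 3 related lists, coloured by call, with a bar at each list's median. The medians are 0.38 for the members, 0.22 for other pathway genes, -0.30 for proteases and 1.93 for cytosolic sensors, with points spread vertically at random.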

How the data were processed

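The deposited gene table covers all 6 libraries. Per the file headers it holds counts per gene and, beside them, FPKM values that the authors had already scaled for length and depth. Per the submitters' processing notes the build was GRCm39, and the tools listed are StringTie 2.1.2, HISAT2 2.2.0 and DESeq2 1.26.0. A read counter, annotation and strand setting were not given in the sources used here. Column names hold S-5 or N, and these were taken to mean SA@BATMAN5 and control. The authors' own comparisons were not used here.

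Of 23034 genes, 13474 passed filterByExpr (at least 10 counts in a group-sized set of libraries, 15 in total). After TMM scaling, edgeR 4.0.16 in R 4.3.3 fitted group alone by its quasi-likelihood method and tested it two-sided, and p-values were adjusted by Benjamini-Hochberg over every tested gene (threshold 0.05). The common coefficient of variation between replicates beyond counting error was 6.91% (edgeR's common dispersion). Standard errors of log2 fold changes use the fit's weights and its moderated variance. No replicate pair matched within sampling noise, with chi-square values of 4.60 to 8.16 for each degree of freedom.

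The members and lists were chosen with earlier results of these data known. All 36 members are named, with up to 3 genes in each direction from each other list (largest change, called, mean of at least 5 CPM, groups apart), and Tnf, Il1b, Cxcl10, Nfkbia and Tnfaip3. Hsp90b1, Map3k7, Irf3, Sting1, Sigirr and the overlapping genes were named after their values were seen, and the kappaB consensus was added after a narrower spelling had been searched and the Tlr2 window seen. All 4 motifs searched are reported. Alternatives were 3 other scalings, TMM without the 100 most abundant genes, other filters, DESeq2 1.42.0, limma 3.58.1 (voom, and log2 of FPKM with a pseudocount of 1), testing against 2-fold, a replicate block, thinning, and each library left out. Figures were drawn with matplotlib 3.10.9.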

Additional observations from a re-analysis of the deposited data

How the results depend on the processing

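No called gene of the 36 changed sign under the 18 alternatives, except that Tlr5 was not tested with the filter at 1 CPM. Against a 2-fold threshold 8 members were higher and 1, Tlr5, was lower, while Tlr9 did not pass. Over all genes 905 were higher and 591 lower. Of the other pathway genes 6 were higher and 0 lower, and 1 protease was higher and 2 lower. Other pathway genes called lower numbered 7 with library totals only and 7 with the upper quartile, and 2 with the DESeq2 Wald test. Cytosolic sensors called lower numbered 1 with library totals only, 1 with the upper quartile and 1 on FPKM. With each library left out in turn, 22 to 23 members were higher and 7 to 9 lower, other pathway genes called lower ranged from 2 to 3, and sensors called lower from 0 to 1 (1 without control replicate 3). In genes that were not called the sign turned. Cd180 was at -0.039 with library totals only, -0.046 with the upper quartile and -0.043 on FPKM. Chuk was at -0.055, -0.061 and -0.049 under the same settings, at -0.0070 after thinning, and between -0.021 and 0.038 (lowest without control replicate 2) with a library left out. Tab3 was at 0.011 after thinning and between -0.073 and 0.052 with a library left out. The cause was not tested. Same-numbered libraries did not deviate together (correlations 0.020, -0.0042 and 0.016), so the replicate block rests on a number alone, and with it 23 members were higher and 9 lower, with no member call changed. Receptor shares by CPM in place of FPKM moved by over 1 SD for Tlr1, Tlr2, Tlr4, Tlr8 and Tlr13 in both groups, with Tlr2 at 18.2% in SA@BATMAN5 and 1.02% in control libraries. Tlr5 had 0, 2 and 0 counts in SA@BATMAN5 libraries, so the size of its fall is loosely known. Its log2 fold change ran from -7.30 to -3.79 with a library left out.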
